A study of Mus musculus with 6 samples.

Results

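The T and NK cell genes described here are 36 genes that T lymphocytes and natural killer (NK) cells use to recognise, signal and kill. They were named by symbol and by role, and a gene was counted as present when a non-control probe of the array carried its symbol. All 36 were found among the 36870 gene names on the array, and the brightest probe of each gene stood for it. Of these, 25 passed the filter on dim probes and were tested, among 20475 genes tested in all, and 11 were not.

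RNA from mouse lung tumours was measured on Agilent whole-genome arrays read in 2 colours, in 3 samples labelled tamoxifen and 3 samples labelled corn oil. Both groups came from C57BL/6J mice of the genotype Ror1f/f; CAG-CreER; SPC-hEGFRdel746-750, so the oil mice carried the same alleles. Ror1f/f is a floxed receptor tyrosine kinase gene, CAG-CreER is a Cre recombinase that tamoxifen switches on and that a broadly active promoter drives, and the surfactant protein C (SPC) promoter drives a mutant human EGFR, a lung oncogene, in alveolar epithelium. Tamoxifen or corn oil was given between 16 and 20 weeks of age, and tumours were taken at 20 weeks. A broadly active Cre could act in lymphocytes as well as in tumour cells, and no group received tamoxifen without Cre, so effects of the drug and of the deletion cannot be told apart. A tamoxifen sample and the oil sample that bears its number were hybridised together on 2 arrays, with the dyes exchanged, and are called a couple. Nothing in the labels ties a number to a separate animal, so the p-values measure only the spread between these samples.

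A T cell recognises antigen through a receptor whose signal is carried into the cell by the CD3 chains and the zeta chain, encoded by Cd3d, Cd3e, Cd3g and Cd247. The kinase Lck phosphorylates these chains, Zap70 docks on them, and Zap70 in turn phosphorylates the adaptor Lat. NK cells carry no such receptor and weigh activating against inhibitory surface receptors instead, and both cell types kill with granules of perforin and granzymes. In lung tumours these cells can enter from the blood or live in the tissue.

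The first 30 bases of 9 probes, each 60 bases long, are shown 5′ to 3′ because the results below rest on what these probes bound. They cover the 4 chains of the receptor complex, the kinase with the most even ratios, the NK receptors whose samples separated by group and the transcription factors with the highest and the lowest ratio. Sequences are those of the scanner files, and positions of the whole probes are on mouse build mm9.
Cd3d, chr9:44794452-44794511, plus strand: agcaacggcgccttcccctgtgatcaacca
Cd3e, chr9:44806828-44806887, minus strand: tctccatgaatacaccagccccctctctgc
Cd3g, chr9:44777868-44777927, minus strand: accctacaggtagactgcaagcagagagga
Cd247, chr1:167791567-167791626, plus strand: taggtactgtgtgtattgttctatgggtat
Zap70, chr1:36839542-36839601, plus strand: aacatcaccagtgggctgagaggatgtgtg
Klrk1, chr6:129562442-129562501, minus strand: ccttgatttcctcccagatatcccctactc
Klrd1, chr6:129548391-129548450, plus strand: gccagagcactgcattgtttacagtccaag
Gata3, chr2:9779495-9779554, minus strand: tgtccaaatgggcacactgtcagttttgtt
Tbx21, chr11:96959417-96959476, minus strand: gaggggggaggctatttattgtagagagtg
The probes of Cd3d, Cd3e and Cd3g lie close together on chromosome 9, where these genes are neighbours, and those of Klrk1 and Klrd1 lie close together on chromosome 6.

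Of the 62976 spots of an array, between 276 and 391 carried an outlier flag and 0 were saturated. Ratios from the 2 arrays of a couple had Pearson correlations of 0.76, 0.77 and 0.79 across all tested genes in couples 1, 2 and 3, whereas the ratios of different couples had correlations between -0.02 and 0.17. Genes are not independent replicates, so these values describe the arrays. The Ror1 probe, at chr4:100115077-100115136, had a log2 ratio of tamoxifen over oil of 0.40 ± 0.21 (SD, n = 3 couples). The sources used here do not place this probe inside or outside the part that Cre removes, so it does not check the labels. For that reason the groups are called by their labels throughout.

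By their brightest probes, most of the T cell surface and signalling genes were measurable in these tumours, and several lineage and checkpoint genes were not. A reading is 1 channel of 1 array, so each gene had 6 readings of tamoxifen samples and 6 of oil samples, and a reading counted when the scanner software flagged the probe as well above background. Of the 36 genes, 23 were well above background in all 12 readings. Klrk1 and Pdcd1 were so in 6 tamoxifen and 5 oil readings. The receptor chains Cd3d, Cd3e, Cd3g and Cd247, the kinases Lck and Zap70, the coreceptor genes Cd4 and Cd8b1, and the killing genes Gzma, Nkg7 and Prf1 were all among the 23. For Cd4, Cd28, Icos, Il7r, Klrk1 and Lck, however, every other probe was well above background in at most 1 of 12 readings. Detection of these genes thus rests on the brightest probe alone.

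Of the 11 genes not tested, 5 were well above background in 0 of 12 readings. These were Cd8a, which encodes the alpha chain of the CD8 coreceptor, Cd27, a costimulatory receptor, Ctla4 and Tigit, which encode inhibitory receptors, and Ncr1, which encodes the NK receptor NKp46. Foxp3, the transcription factor of regulatory T cells, came nearest to the filter, with 4 tamoxifen and 4 oil readings. Gzmb, which encodes the granule protease granzyme B, had 3 tamoxifen and 3 oil readings. Lag3, an inhibitory receptor gene, had 2 tamoxifen readings and 1 oil reading, and Klrb1c, which encodes the NK receptor NK1.1, had 1 tamoxifen and 0 oil readings. Txk, which encodes a kinase of the Tec family, had 1 tamoxifen and 2 oil readings, and Eomes, a transcription factor gene of NK and memory CD8 cells, had 0 tamoxifen readings and 1 oil reading. The mean log2 ratios of these 11 genes ran from -0.10 for Eomes to 0.06 for Lag3. A probe that was not well above background gives only a bound on its transcript.

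**Figure D1:**
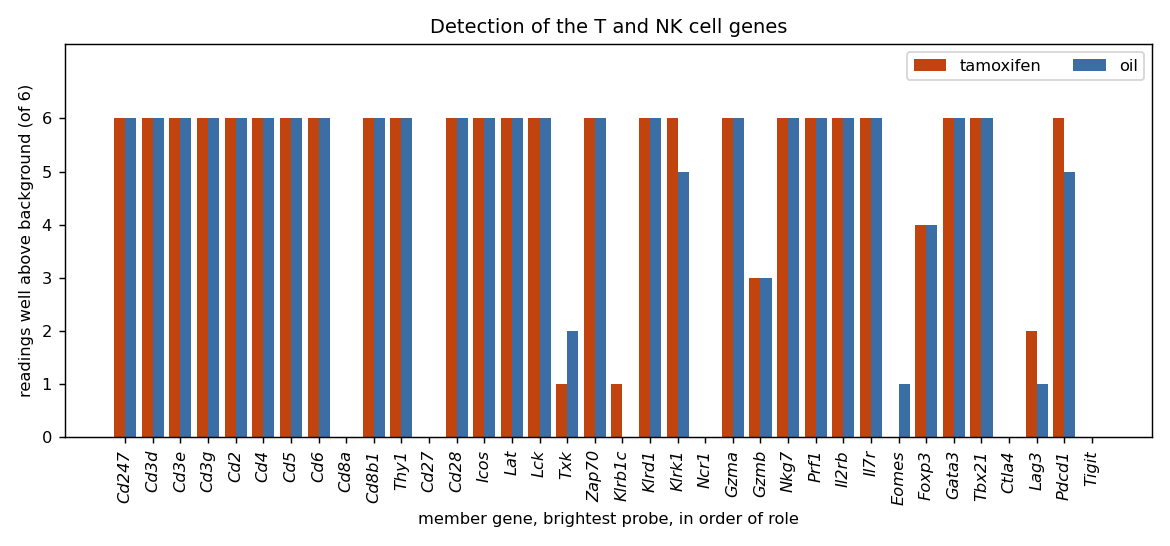
Readings well above background, of 6 per group, for each of the 36 genes in order of role, with tamoxifen bars left of oil bars. The bars reach 6 in both groups for 23 genes and stand at 0 in both groups for Cd8a, Cd27, Ctla4, Tigit and Ncr1.

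The comparison of tamoxifen with oil asks whether T and NK cell transcripts differed in tumours after the treatment that activates Cre in mice with a floxed Ror1 gene. No gene passed limma's test of the 3 couple ratios against 0 at an adjusted p under 0.05, which is 0 of 20475 genes, or 0%, and 0 of the 25. The adjusted p of the 25 ran from 0.69 to 0.998, and the lowest of any gene was 0.41. At an unadjusted p under 0.05, 614 genes were higher and 822 were lower, which is 3% and 4.01% of those tested. Of the 25, 1 passed that looser threshold, Gata3, and it was higher. With the 6 arrays as units and the couple as a random replicate block, limma called 56 genes, of which 0 were among the 25, and with the channels taken apart it called 1 gene and again 0 of the 25.

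The ratios of the 25 lay mostly a little above 0. Of these, 20 had a mean log2 ratio above 0, which is 80%, beside 48.8% of all tested genes. Their median ratio was 0.09, and it was 0.19, 0.10 and 0.05 in couples 1, 2 and 3, beside -0.0039 over all tested genes. The number above 0 was 18, 20 and 15 of 25 in those couples. The mean ratio was larger than its SD between couples for 13 of the 25 genes, and the median SD was 0.13 over the 25 and 0.17 over all tested genes. The offset of the background correction draws the ratios of dim probes toward 0. The log ratio of the scanner software takes the place of this correction and of the dye normalization used here. With only the offset lowered to 10, the median of the 25 was 0.14, beside -0.0011 over all tested genes. With only median centring in place of loess, it was 0.10, beside 0.0146. The parts of these steps in the scanner log ratio itself were not tested. With the scanner log ratio the median of the 25 was 0.20, beside 0.0074 over all tested genes. It put 21 of the 25 above 0, beside 52% of all tested genes. Ratios that grew by more than 1.5 times with it included Cd5 at 0.36, Cd6 at 0.38, Cd3g at 0.34, Il2rb at 0.46, Nkg7 at 0.45 and Tbx21 at -0.65, and again 0 of the 25 passed the test. In a bulk tumour sample, fewer cells of a type and less RNA per cell cannot be told apart.

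By couple, 9 of the 25 genes were higher in tamoxifen than in oil in all 3 couples, beside 13.8% of tested genes, and 2 were lower in all 3, beside 16.4%. The 9 were Cd3d, Cd3g, Cd5, Cd6, Cd28, Klrk1, Lck, Zap70 and Gata3, and the 2 were Klrd1 and Cd247. On all 6 arrays, 5 were higher, beside 6.04% of tested genes, and 0 were lower, beside 7.21%. Only for Zap70 and Klrk1 did all 3 tamoxifen samples lie above all 3 oil samples, beside 5.2% of tested genes. For Klrd1 alone all 3 lay below, beside 7.14%. None of these genes passed the test.

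**Figure D2:**
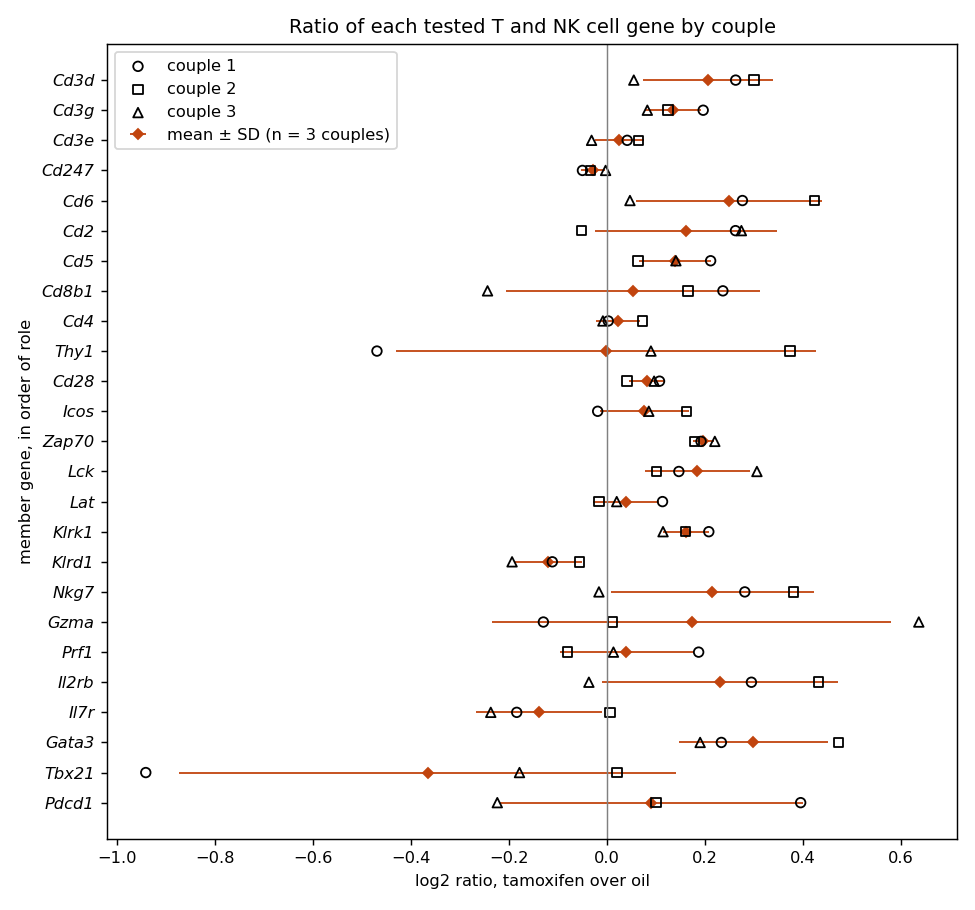
Log2 ratio of tamoxifen over oil for the 25 tested genes in order of role, with an open symbol for each of the 3 couples and a diamond with bars for the mean ± SD. The points of most genes lie within a short distance right of 0, Thy1 spreads from -0.47 to 0.37, and Tbx21 reaches -0.94 in couple 1.

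Among the receptor complex genes, Cd3d and Cd3g were higher in tamoxifen in every couple by their brightest probes, while Cd3e and Cd247 lay at about 0. Cd3d, which encodes the delta chain of CD3, had log2 levels of 8.33, 8.33 and 7.80 in tamoxifen samples 1, 2 and 3, against 8.07, 8.03 and 7.75 in the oil samples. The third sample of each group was the lowest and the groups overlapped. The ratio of Cd3d was 0.21 ± 0.13 (SD, n = 3 couples; limma, adjusted p = 0.69), and its second probe gave 0.19, with couple 3 at -0.03. Cd3g, the gamma chain gene, had levels of 7.08, 7.08 and 6.87 in tamoxifen samples, against 6.89, 6.95 and 6.79 in oil samples, with a ratio of 0.13 ± 0.06 (SD, n = 3 couples). The tamoxifen sample of couple 3 lay below the oil samples of the other couples, so these groups overlapped too.

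Cd3e, the epsilon chain gene, had levels of 9.29, 9.17 and 9.09 in tamoxifen samples, against 9.25, 9.10 and 9.12 in oil samples. Its ratio of 0.03 ± 0.05 (SD, n = 3 couples) was smaller than its spread, and a second probe gave 0.04. Cd247, which encodes the zeta chain that Zap70 docks on, had levels of 10.86, 10.67 and 10.64 in tamoxifen samples, against 10.91, 10.70 and 10.64 in oil samples. The samples of a couple lay close together, with a ratio of -0.03 ± 0.02 (SD, n = 3 couples). On single arrays, however, Cd247 lay between -0.19 and -0.10 with tamoxifen in Cy5 and between 0.09 and 0.10 with tamoxifen in Cy3, so its sign followed the dye. A second Cd247 probe, which was well above background in 1 tamoxifen and 5 oil readings, gave -0.14. The other Cd247 probes were well above background in 0 readings of either group, so the brightest probe alone gave the high level.

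The kinases and the adaptor next to the receptor had ratios above 0. Zap70, the kinase that binds the phosphorylated CD3 and zeta chains, had levels of 7.90, 7.97 and 7.81 in tamoxifen samples, against 7.71, 7.79 and 7.59 in oil samples. All 3 tamoxifen samples lay above all 3 oil samples, though the lowest of tamoxifen and the highest of oil nearly met. The Zap70 ratio was 0.19, 0.18 and 0.22 in the 3 couples, or 0.20 ± 0.02 (SD, n = 3 couples; limma, adjusted p = 0.69). Its second probe gave 0.13, with couple 3 at -0.02, so that the even ratio over couples was not seen by both probes.

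Lck, the kinase that starts the cascade, had levels of 8.70, 8.51 and 8.49 in tamoxifen samples, against 8.55, 8.41 and 8.19 in oil samples. Each tamoxifen sample lay above the oil sample of its couple, and the groups overlapped. Its ratio was 0.18 ± 0.11 (SD, n = 3 couples; limma, adjusted p = 0.69), and it was 0.34 with tamoxifen in Cy5 and 0.03 with tamoxifen in Cy3. The adaptor gene Lat had a ratio of 0.04 ± 0.07 (SD, n = 3 couples), within its spread.

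**Figure D3:**
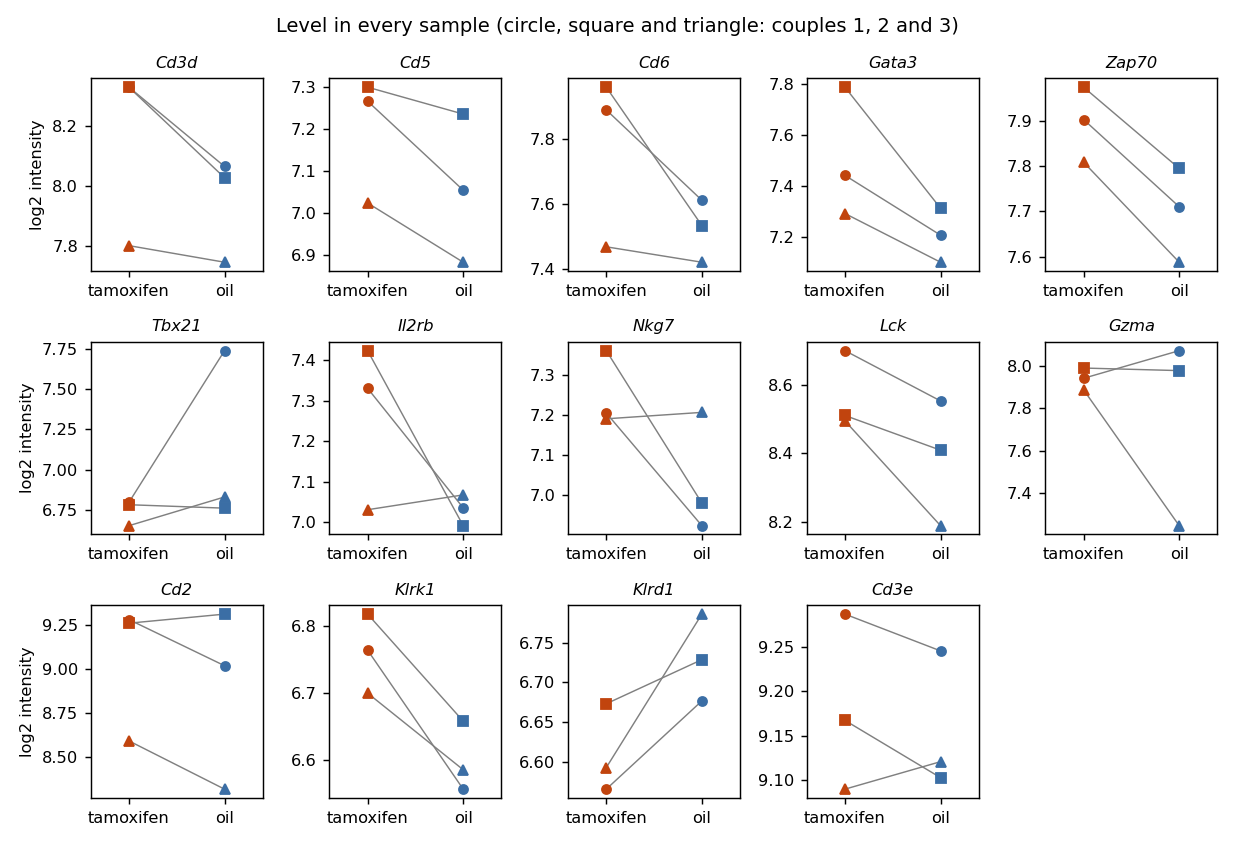
Log2 intensity of the genes given in full and of Klrk1, Klrd1 and Cd3e in every sample, with tamoxifen left, oil right, and a line joining the samples of a couple. Each panel has its own vertical scale. For Zap70 and Klrk1 every tamoxifen point lies above every oil point, and for Klrd1 every tamoxifen point lies below.

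Of the 6 tested coreceptor and surface genes, 5 had ratios above 0. Cd6, which encodes a surface receptor that tunes T cell activation, had levels of 7.89, 7.96 and 7.47 in tamoxifen samples, against 7.61, 7.53 and 7.42 in oil samples. Couples 1 and 2 held the difference, and couple 3 had almost none. Its ratio was 0.25 ± 0.19 (SD, n = 3 couples; limma, adjusted p = 0.69), above 0 on all 6 arrays. Cd5, which encodes a receptor that dampens antigen receptor signals, had levels of 7.27, 7.30 and 7.02 in tamoxifen samples, against 7.05, 7.24 and 6.88 in oil samples. Each couple had the higher value in tamoxifen, the groups overlapped, and the ratio was 0.14 ± 0.07 (SD, n = 3 couples). Cd2, an adhesion receptor gene of T and NK cells, had levels of 9.28, 9.26 and 8.59 in tamoxifen samples, against 9.02, 9.31 and 8.32 in oil samples, with a ratio of 0.16 ± 0.19 (SD, n = 3 couples). Both samples of couple 3 stood clearly below the others, and couple 2 ran the other way.

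The genes that mark helper and cytotoxic T cells showed no difference beyond their spread. Cd4, the coreceptor gene of helper T cells, had a ratio of 0.02 ± 0.04 (SD, n = 3 couples), with levels from 9.81 to 10.12 in tamoxifen samples and from 9.82 to 10.05 in oil samples. These values rest on its brightest probe, and its other probes had 0 tamoxifen readings and at most 1 oil reading well above background. Cd8b1, the beta chain gene of the CD8 coreceptor, had ratios of 0.24, 0.17 and -0.24 in the 3 couples. Thy1, a surface marker of mouse T cells that fibroblasts and nerve cells also make, had levels of 10.42, 10.67 and 9.89 in tamoxifen samples, against 10.89, 10.30 and 9.80 in oil samples. Its couples disagreed in sign, with ratios of -0.47, 0.37 and 0.09 and a mean of -0.00 ± 0.43 (SD, n = 3 couples). The markers of all leukocytes had medians of -0.37, 0.15 and 0.10 in the same couples, and those of alveolar macrophages had -0.96, 0.70 and -0.29, and their part in the Thy1 ratios was not tested.

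Of the costimulatory genes, Cd28, whose product gives the second signal for activation, had a ratio of 0.08 ± 0.04 (SD, n = 3 couples), and Icos, a receptor gene of activated T cells, had 0.08 ± 0.09 (SD, n = 3 couples). Cd28 lay at 0.25 with tamoxifen in Cy5 and at -0.09 with tamoxifen in Cy3. The cytokine receptor genes went apart. Il2rb, the beta chain gene of the receptors for interleukins 2 and 15, had levels of 7.33, 7.42 and 7.03 in tamoxifen samples, against 7.04, 6.99 and 7.07 in oil samples. Couples 1 and 2 were higher in tamoxifen and couple 3 was not, and the ratio was 0.23 ± 0.24 (SD, n = 3 couples). Its second probe gave -0.03, so the Il2rb probes disagreed. Il7r, the receptor chain gene for the survival cytokine interleukin 7, had a ratio of -0.14 ± 0.13 (SD, n = 3 couples), and it was 0.03 with tamoxifen in Cy5 and -0.31 with tamoxifen in Cy3.

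The 2 NK receptor genes that could be tested pointed in opposite directions, and both separated the groups. Klrk1 encodes NKG2D, an activating receptor that recognises stress ligands on tumour cells. It had levels of 6.76, 6.82 and 6.70 in tamoxifen samples, against 6.56, 6.66 and 6.59 in oil samples, so every tamoxifen sample lay above every oil sample by a narrow margin. The ratio of Klrk1 was 0.16 ± 0.05 (SD, n = 3 couples; limma, adjusted p = 0.70), and 1 of its 6 arrays lay below 0. With the scanner log ratio it was 0.56. Klrd1 encodes CD94, the partner of inhibitory and activating NKG2 chains. It had levels of 6.57, 6.67 and 6.59 in tamoxifen samples, against 6.68, 6.73 and 6.79 in oil samples, so every tamoxifen sample lay just below every oil sample. The ratio of Klrd1 was -0.12 ± 0.07 (SD, n = 3 couples; limma, adjusted p = 0.76), and with the scanner log ratio it was -0.33. The 2 genes are neighbours in the NK gene complex of chromosome 6.

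The granule genes had ratios above 0 in 2 of 3 couples each. Nkg7, which encodes a granule membrane protein, had levels of 7.21, 7.36 and 7.19 in tamoxifen samples, against 6.92, 6.98 and 7.21 in oil samples. Couples 1 and 2 were higher in tamoxifen and couple 3 was level, with a ratio of 0.22 ± 0.21 (SD, n = 3 couples). Gzma, the granzyme A gene, had levels of 7.94, 7.99 and 7.89 in tamoxifen samples, against 8.07, 7.98 and 7.25 in oil samples. The low oil sample of couple 3 gave that couple a ratio of 0.64 and the mean of 0.17 ± 0.41 (SD, n = 3 couples), and without couple 3 the mean was -0.06. Prf1, which encodes the pore protein perforin, had 0.04 ± 0.14 (SD, n = 3 couples). Pdcd1, the gene of the inhibitory receptor PD-1 and the only one of the 4 inhibitory receptor genes among the 36 to be tested, had ratios of 0.40, 0.10 and -0.22 in the 3 couples, with a mean of 0.09 ± 0.31 (SD, n = 3 couples).

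The transcription factors held both ends of the range. Gata3, the factor of type 2 helper T cells and group 2 innate lymphoid cells, had levels of 7.44, 7.79 and 7.29 in tamoxifen samples, against 7.21, 7.31 and 7.10 in oil samples. It was higher in tamoxifen on all 6 arrays, while tamoxifen sample 3 lay just below oil sample 2, so the groups overlapped. The ratio of Gata3 was 0.30 ± 0.15 (SD, n = 3 couples; limma, adjusted p = 0.69), the highest of the 25 tested genes. With the scanner log ratio it was 0.53, below the 0.56 of Klrk1. Some lung epithelial and stromal cells can also express Gata3.

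Tbx21 encodes T-bet, the factor of type 1 helper T cells and NK cells. It had levels of 6.80, 6.78 and 6.65 in tamoxifen samples, against 7.74, 6.76 and 6.83 in oil samples, and oil sample 1 alone stood high. The ratio was -0.94, 0.02 and -0.18 in the 3 couples, or -0.37 ± 0.51 (SD, n = 3 couples; limma, adjusted p = 0.72), the lowest of the 25. On the couple 1 array with tamoxifen in Cy3 the ratio was -2.05, and on the other array of that couple, with the same RNA, it was 0.16. Without that 1 array the mean was 0.0021, so the Tbx21 value rested on 1 array.

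**Figure D4:**
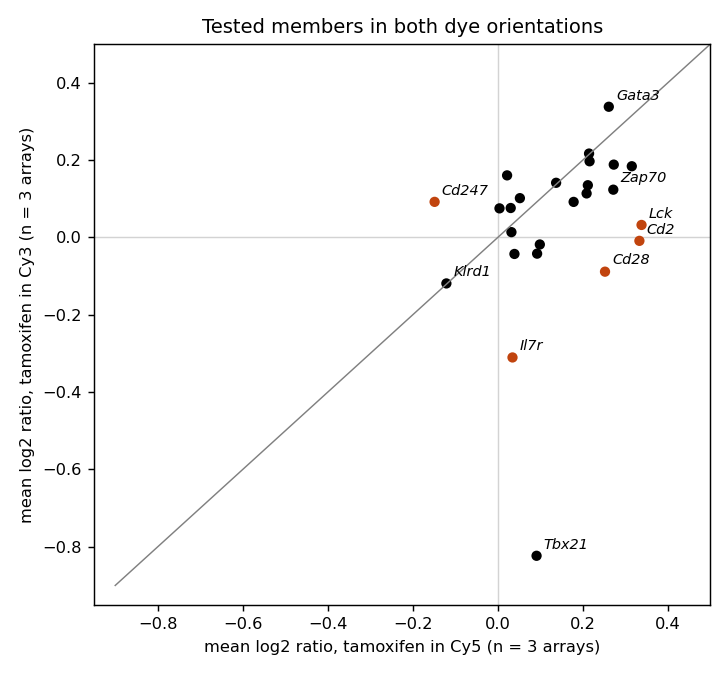
Mean log2 ratio of tamoxifen over oil of the 25 tested genes on the 3 arrays with tamoxifen in Cy5 (horizontal) and the 3 with tamoxifen in Cy3 (vertical), with the line of equal values. The 5 genes in colour, Cd2, Cd28, Cd247, Il7r and Lck, differed between orientations at an adjusted p under 0.05, and Tbx21 lies far below the line.

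Several of these genes had ratios that depended on the dye orientation. In limma's paired test of the 3 arrays with tamoxifen in Cy5 against the 3 with tamoxifen in Cy3, 5 of the 25 genes passed at an adjusted p under 0.05, which is 20%, beside 30.7% of all tested genes. Averaging both orientations cancels such a difference in the couple ratios. Across the 25 genes the 2 orientations had Pearson correlations of 0.27, 0.57 and 0.54 in couples 1, 2 and 3. These were lower than over all tested genes. The mean ratios over couples ran from -0.37 to 0.30 in the 25 and from -2.02 to 3.38 in all tested genes. In couple 1, however, Tbx21 lay at 0.16 with tamoxifen in Cy5 and at -2.05 with tamoxifen in Cy3. The part of Tbx21 and of the range in these correlations was not tested.

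For many T cell genes the samples of couple 3, tamoxifen and oil alike, had the lowest levels. In couple 3 both samples, tamoxifen and oil, had lower levels than all 4 samples of the other couples for 12 of the 25 genes, beside 8.89% of tested genes. The opposite, both samples of couple 3 above the other 4, was the case for 0 of the 25, beside 8.03% of tested genes. The 12 were Cd3d, Cd3g and Cd247 of the receptor complex, Cd2, Cd4, Cd5, Cd6 and Thy1 of the surface genes, and Icos, Il7r, Lat and Gzma. For Cd2 the levels were 8.59 in the tamoxifen and 8.32 in the oil sample of couple 3, and no other sample was below 9.02. For Gzma the margin was narrow, with 7.89 in tamoxifen sample 3 beside 7.94 in tamoxifen sample 1. This rule compares ranks and not sizes. It was chosen after the levels were seen, and no test was made of it.

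The same count was made in the other gene lists, where 8.89% is again the share over all tested genes. Both samples of couple 3 lay lowest for 5 of 22 other T cell genes, including Tcf7, Lef1 and Satb1, which encode regulators of naive T cells and thymocytes. They lay lowest for 4 of 22 other genes of antigen receptor signalling. They lay lowest for 1 of 7 neutrophil markers, Cxcr2, and for 0 of 16 other NK and innate lymphoid genes, 0 of 8 markers of all leukocytes, 0 of 7 B and plasma cell markers and 0 of 10 alveolar macrophage markers. These lists are too short for a count of 0 to stand apart from that share, and no difference between lists was tested. The samples of a couple shared their arrays as well as their number, so a difference between the RNA of couple 3 and a difference between its arrays cannot be told apart. Without scaling between arrays the count was 14 of the 25, beside 14.7% of tested genes.

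The other genes of these cells were read in the same way. Of 22 tested genes of antigen receptor signalling beside those above, 13 had ratios above 0 with a median of 0.03, and 0 passed the test. Of these, Malt1, which encodes a protease on the way to NF-kappa B, had -0.49 ± 0.33, Fyb, an adaptor gene, -0.22 ± 0.30, and Nfatc3, a calcium-controlled transcription factor gene, -0.15 ± 0.12 (SD, n = 3 couples each), all below 0 on 6 arrays. Of 22 other tested T cell genes, 14 lay above 0 with a median of 0.05, and 0 passed. Btla, which encodes an inhibitory receptor of T and B cells, had 0.60 ± 0.24, Tnfrsf18, which encodes the costimulatory receptor GITR, 0.28 ± 0.11, and Itgae, the integrin gene of tissue-resident T cells, 0.26 ± 0.11 (SD, n = 3 couples each). For each of these 3 genes all tamoxifen samples lay above all oil samples.

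Of 16 tested NK and innate lymphoid genes outside the 36, 10 lay above 0 with a median of 0.03, and 0 passed. In all 3 couples 5 of them were higher, beside 13.8% of tested genes, and 1 was lower, beside 16.4%. The lower gene was Rora, at -0.26 ± 0.23 (SD, n = 3 couples), with all tamoxifen samples below all oil samples. Rora also differed between dye orientations, by 0.25 (limma's paired test, adjusted p = 0.016). Id2, which encodes a regulator needed for innate lymphoid cells and also made by many other cells, had 0.55 ± 0.29, Il1rl1, the receptor gene for interleukin 33, 0.20 ± 0.13, and Klrg1, a receptor gene of mature killer and innate lymphoid cells, 0.18 ± 0.05 (SD, n = 3 couples each), all above 0 on 6 arrays. In limma's paired test of the dye orientations, Id2 differed by 0.17 (limma, adjusted p = 0.038) and Il1rl1 by 0.29 (limma, adjusted p = 0.025). Both were higher with tamoxifen in Cy5, and with tamoxifen in Cy3 Il1rl1 lay between 0.0041 and 0.13. That test passed for 30.7% of all tested genes. The Klrg1 probe was well above background in only 5 tamoxifen and 3 oil readings. Its ratio was 0.91 with the scanner log ratio, which differs in both background correction and dye normalization. Which of these changed the size of the ratio was not tested. Of 17 tested ligand genes of the receptors, 5 lay above 0 with a median of -0.11. Il33, which encodes an alarm cytokine of epithelium and stroma, had 0.54 ± 0.23 (SD, n = 3 couples), with all tamoxifen samples above all oil samples. It also differed between dye orientations in the paired test, by 0.49 (limma, adjusted p = 0.0029). Single arrays of Il33 ran from 0.54 to 0.96 with tamoxifen in Cy5 and from 0.04 to 0.54 with tamoxifen in Cy3. Nectin2, which encodes a ligand of TIGIT, had -0.26 ± 0.21 (SD, n = 3 couples). In limma's test of the couple ratios against 0, the lowest adjusted p in each of these 4 lists was 0.69.

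**Figure D5:**
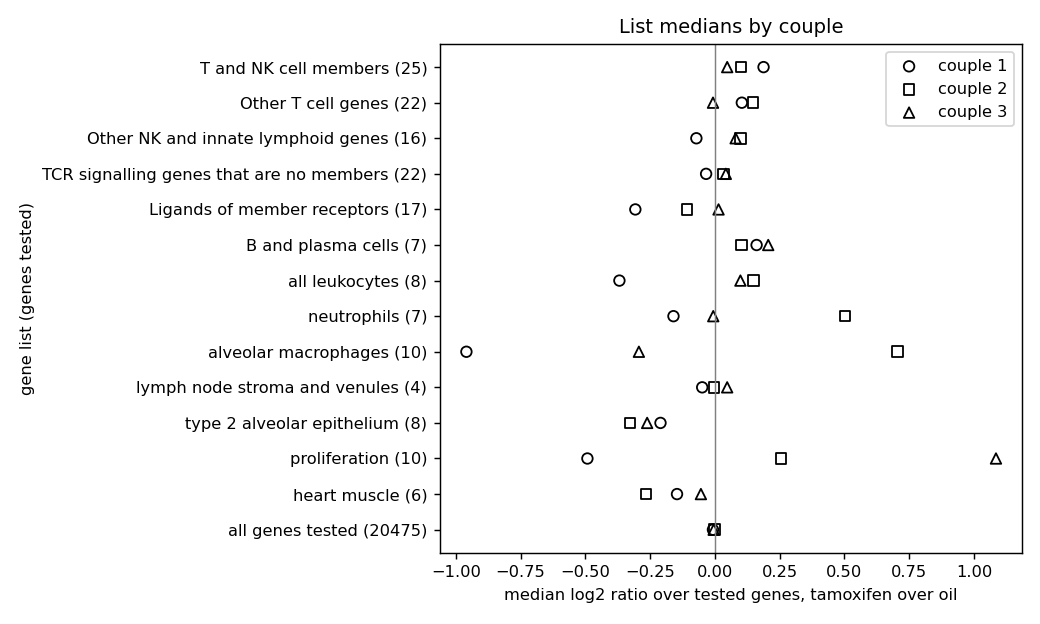
Median log2 ratio of tamoxifen over oil in each couple for the T and NK cell genes and 12 other gene lists, with all tested genes at the bottom, and the number of genes tested in parentheses. The 3 medians of the T and NK cell genes lie between 0.05 and 0.19, and those of the alveolar macrophage and proliferation lists spread from -0.96 to 0.70 and from -0.49 to 1.08.

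Markers of other cell types were read beside these genes, and 0 of them passed the test. The 8 type 2 alveolar epithelial markers all had ratios below 0 with a median of -0.28, and Sftpb, which encodes a surfactant protein, had -0.62. Their log2 summed level was 19.14 in all tamoxifen samples and ran from 19.41 to 19.47 in oil samples. A sum of this kind weighs the brightest genes most. By gene, 5 of the 8 were lower in all 3 couples, beside 16.4% of tested genes. For 4 of the 8 all tamoxifen samples lay below all oil samples, beside 7.14%. All 8 were well above background in all readings of both groups. Of 7 tested B and plasma cell markers, 6 lay above 0 with a median of 0.15, with summed levels from 11.18 to 12.07 in tamoxifen samples and from 11.10 to 11.80 in oil samples. Of the 8 markers of all leukocytes, 4 lay above 0 with a median of 0.01, with summed levels from 14.48 to 14.96 in tamoxifen samples and from 14.53 to 14.84 in oil samples. Summed over the 25 genes, the level ran from 12.91 to 13.21 in tamoxifen samples and from 12.86 to 13.22 in oil samples, so the groups overlapped. This sum weighs the brightest genes most, here Cd247, Thy1 and Cd4, whose mean ratios lay near 0. It says little about the dimmer genes. Of the 4 thymocyte markers, Rag1, Rag2 and Ptcra were well above background in 0 readings, and Dntt was so in 6 tamoxifen and 5 oil readings, with a ratio of 0.03. For lymph node stroma, 2 of 4 tested lymph node genes lay above 0 with a median of -0.02, with summed levels from 11.07 to 11.68 in tamoxifen samples and from 10.89 to 11.59 in oil samples. Of 7 tested neutrophil markers 5 lay above 0 with a median of 0.14, of 10 alveolar macrophage markers 1 did with a median of -0.25, of 10 proliferation genes 10 did with a median of 0.27, and of 6 heart muscle genes 0 did with a median of -0.20. The part of these cell types in the ratios was not tested.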

How the data were processed

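RNA of 3 tamoxifen and 3 oil samples was measured on 6 arrays, 2 per couple with the dyes exchanged. Per the file headers, the scanner files hold spot intensity, not yet normalized, and flags. They also hold, per the file headers, the log10 of Cy5 over Cy3 after dye normalization by the scanner software. The submitters' processing notes name Agilent Feature Extraction 12.0.3.1. The deposited table holds log2 ratios of Cy5 over Cy3, on the scale of that log10 ratio times 3.32, with column medians from -0.15 to 0.14. From 50 ng of RNA, per the labels' protocols, cRNA was labelled and hybridised.

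Intensities were corrected with normexp (offset 50) and normalized by loess within each array in limma 3.58.1 under R 4.3.3. The 3671 control spots had weight 0 and were removed, outlier-flagged spots were left out, and spots of a probe were averaged. The brightest probe stood for a gene, and the gene was tested if at least 1 of the tamoxifen and oil channels had that probe flagged as well above background on both arrays in 2 or more couples. Ratios were turned to tamoxifen over oil, averaged per couple and tested against 0 (two-sided, Benjamini-Hochberg over 20475 genes). Sample levels are log2 intensities per channel after loess and Aquantile scaling, so a gene's level is not comparable with another gene's. The median standard error of a ratio was 0.10, and precision is limited by how few arrays there are. The test was tried on simulated data with known changes.

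The 36 genes and all lists were chosen with earlier results of these data known. All 36 were reported. Those with the same sign on all 6 arrays and the 6 with the largest ratio among the others were given in full, as were some others chosen after their values were seen. From each other list at most 3 genes, of 1 sign on all arrays and with the smallest p, were named. As an exception, Sftpb stands for its list. Rora was added outside this rule after its values were seen, and genes named for couple 3 were chosen after their levels were seen. Pairing of samples comes from the labels, which put equal numbers on the same arrays. All probe positions are the files' own on mm9, and no annotation of that build was used, so exon and UTR are not given. Alternatives are given under the closing section.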

Additional observations from a re-analysis of the deposited data

Results flagged for a closer look

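For 5 of the 25 genes the log2 ratio of tamoxifen over oil differed between the dye orientations in limma's paired test. The p was adjusted over all tested genes. The difference is the ratio with tamoxifen in Cy5 minus that with tamoxifen in Cy3. It was -0.24 for Cd247 (limma, adjusted p = 0.012), whose ratio was below 0 on all 3 arrays of the first kind and above 0 on all 3 of the second. It was 0.31 for Lck (limma, adjusted p = 0.013), 0.34 for Cd2 (limma, adjusted p = 0.015), 0.34 for Cd28 (limma, adjusted p = 0.024) and 0.34 for Il7r (limma, adjusted p = 0.035). The mean ratios with tamoxifen in Cy5 and in Cy3 were 0.34 and 0.03 for Lck, 0.33 and -0.01 for Cd2, 0.25 and -0.09 for Cd28, and 0.03 and -0.31 for Il7r, so the mean changed sign for Cd2, Cd28 and Il7r. The same test passed for 6279 genes in all, which is 30.7% of those tested, so 5 of 25 is not a larger share.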

How the results depend on the processing

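The count of T and NK cell genes past the threshold was 0 under all alternatives run. Between 18 and 22 of 25 had ratios above 0 in those that kept all 25, beside 48.2% to 54.3% of all tested genes. With the scanner log ratio, and with the deposited table, the median was 0.20 in place of 0.09 and 1 gene was lower in all couples in place of 2. That count was also 1 with an offset of 10 and with median centring. Over all genes, 56 were called with the replicate block and 1 with the channels apart and no replicate block. Without scaling between arrays, 1 gene in place of 3 separated the groups. Between 10 and 14 genes were lowest in both samples of couple 3 in the alternatives that gave sample levels of all couples, a count and alternatives chosen after seeing the data. Leaving out each couple in turn gave 12 to 15 genes higher and 2 to 4 lower in both couples left, and 4 to 13 with separate samples. Fewer samples meet such rules more easily, and the share of all tested genes was not computed here. These counts therefore cannot be set beside those of 3 couples or read as a result about the 25. The sign of Thy1 turned to 0.0091 with the scanner log ratio and the deposited table, to 0.0044 with an offset of 10 and to 0.031 with median centring, where Cd247 was 0.0078. Ms4a1, a B cell marker, was -0.082 as the mean of its probes, and Tbx21 was 0.0021 without the couple 1 array with tamoxifen in Cy3. Over the fits that leave out a couple, the ratio ran from -0.039 to 0.20 for Cd8b1, from -0.061 to 0.25 for Pdcd1, from -0.034 to 0.10 for Prf1, from -0.19 to 0.23 for Thy1, from -0.0025 to 0.038 for Cd4 and from -0.059 to 0.32 for Gzma. The cause of these changes was not tested. The replicate block changed no other call.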
